A study of Mus musculus with 9 samples.

Results

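Mitochondrially encoded genes are the genes of the small circular chromosome inside mitochondria. Here they were taken as every row of the raw count table whose symbol starts with mt-. There were 37 such rows of 43472 in all: 2 ribosomal RNA (rRNA) genes, 13 protein-coding genes and 22 transfer RNA (tRNA) genes. The class was selected on its share of all counts, which differs between the tissues in these libraries. That share and each gene's difference between tissues are therefore given as a description and support nothing. The balance among the genes within the class was not used to choose them, but the genes and lists below were chosen with earlier results of these data known.

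The data are RNA sequencing counts from 9 libraries of C57BL/6J mice. The groups were 3 libraries of bone (Bone, labelled osteoblasts), 3 of mature cartilage (MatC, labelled mature chondrocytes) and 3 of immature cartilage (ImC, labelled immature chondrocytes). No genotype other than this strain and no treatment is labelled, and neither an age nor an anatomical site is given. By its title, the series concerns how the gene networks of cartilage and bone act together as cartilage matures. The RNA was amplified for 1 round before library preparation, and the kit does not mark strand. Nothing in the labels ties a replicate to its own animal, so the spread behind each p-value is that between these samples and may be technical.

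Mitochondrial DNA is transcribed from both strands into long precursors. The heavy strand precursor holds both rRNAs, most tRNAs and all mRNAs but mt-Nd6, which lies on the other strand. The tRNAs lie between the other genes and are cut out, and the freed rRNAs and most of the mRNAs receive poly(A) tails. The mRNAs encode subunits of complexes I, III and IV of the respiratory chain and of the ATP synthase (complex V), and the rRNAs form the ribosome that translates them. Cartilage has no blood vessels, and its cells are known for relying largely on glycolysis.

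Several of these genes share bases with a neighbour, and 9 pairs of the 37 overlap in the annotation. The sequences below, taken from the GENCODE M21 transcripts on GRCm38, show pairs named in the results. The part of these overlaps in the counts was not tested. mt-Atp8 (chrM:7766-7969, plus strand) is printed whole, with the bases it shares with mt-Atp6 in capitals. The last 60 bases of mt-Nd4l (chrM:10114-10173, plus strand) have in capitals those shared with mt-Nd4. The last 60 bases of mt-Nd6 (chrM:13552-13611, minus strand) have in capitals those that mt-Nd5 covers on the opposite strand.
mt-Atp8: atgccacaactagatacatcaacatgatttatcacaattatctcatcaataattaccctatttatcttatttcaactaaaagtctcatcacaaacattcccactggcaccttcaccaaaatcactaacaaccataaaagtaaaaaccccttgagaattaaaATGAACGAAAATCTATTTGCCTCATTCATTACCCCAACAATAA
mt-Nd4l end: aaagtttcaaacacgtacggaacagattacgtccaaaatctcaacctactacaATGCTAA
mt-Nd6 end: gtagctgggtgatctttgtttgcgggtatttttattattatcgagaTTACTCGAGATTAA
The overlap is 43 bases for mt-Atp8 with mt-Atp6, 7 for mt-Nd4l with mt-Nd4 and 14 for mt-Nd6 with mt-Nd5. How reads that touch 2 genes were counted is not given in the sources used here.

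Total counts ran from 7913684 to 23159547 per library. Summed osteoblast markers were highest in Bone and summed immature chondrocyte markers were high in both cartilage groups, which overlapped, with MatC replicate 3 above all ImC libraries. Within MatC, replicate 2 was highest and replicate 3 lowest in osteoblast markers. Osteoblast markers summed to 37662 to 43081 counts per 1000000 (CPM, with TMM scaling factors) in Bone, 677 to 14063 in MatC and 152 to 376 in ImC. Immature chondrocyte markers summed to 341 to 714 CPM in Bone, 6543 to 13811 in MatC and 11577 to 13365 in ImC, and hypertrophic chondrocyte markers to 1025 to 1044, 2758 to 12523 and 142 to 607 CPM in the same order. Members of the hypertrophic list went opposite ways between Bone and MatC, so that sum does not measure hypertrophic chondrocytes in Bone. MatC replicate 3 stood apart, with 1904092 counts outside the class against at least 5957552 in each other library, and 14920 other genes with a read against at least 17513.

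The mitochondrial share of all counts was low in bone and high and variable in cartilage. It was 7.90%, 7.24% and 8.91% in Bone replicates 1, 2 and 3, 33.7%, 69.1% and 82.3% in MatC and 45.3%, 32.0% and 55.0% in ImC. The 3 Bone libraries lay close together below all 6 cartilage libraries, and the cartilage groups overlapped. The exact 95% binomial interval of a library's share was at most 0.0591 percentage points wide, and it covers counting error only. Means were 8.01% ± 0.84 in Bone, 61.7% ± 25.1 in MatC and 44.1% ± 11.6 in ImC (SD, n = 3 each), and 51.4% in MatC without replicate 3. Per 100 counts of all other genes, the class had 7.80 to 9.78 in Bone, 50.8 to 465 in MatC and 47.1 to 122 in ImC. Of the 20 rows with the most counts, 7 to 9 were mitochondrial in Bone, 11 to 14 in MatC and 11 to 13 in ImC. The row with the most counts was Col1a2, a chain of type I collagen, in all 3 Bone libraries. In all but 1 of the cartilage libraries it was mt-Rnr2, the large rRNA, and in MatC replicate 3 it was mt-Co2, a subunit of cytochrome c oxidase. In bulk tissue, fewer cells rich in mitochondrial RNA and less such RNA per cell cannot be told apart.

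**Figure D1:**
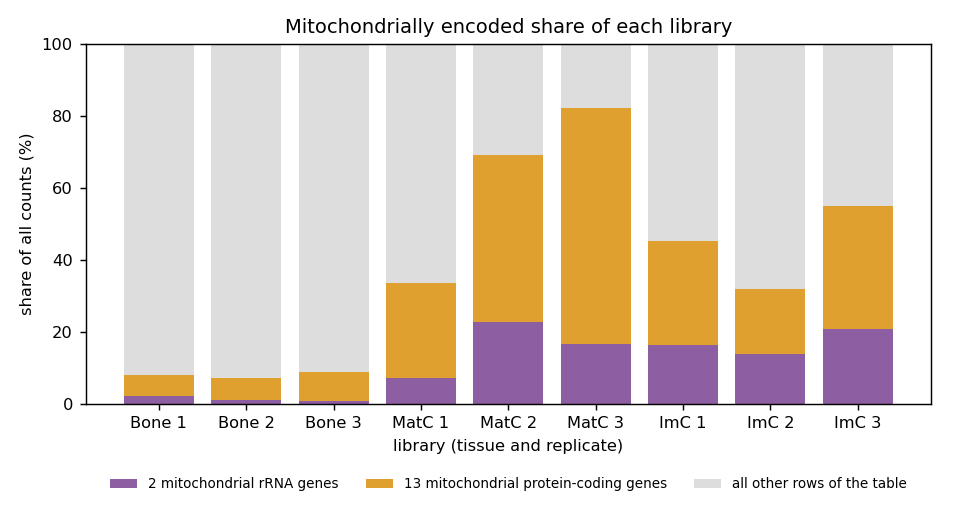
Share of all counts (%) taken by the 2 mitochondrial rRNA genes, the 13 mitochondrial protein-coding genes and all other rows, as stacked bars for each library; tRNA counts are too few to see. The Bone libraries hold 7.24% to 8.91% mitochondrial counts and the cartilage libraries 32.0% to 82.3%.

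Markers of other cells also differed between the libraries, and their part in these shares was not tested. The 7 erythroid markers summed to 6439 to 9212 CPM in Bone, 874 to 3505 in MatC and 9.75 to 1424 in ImC. The 8 skeletal muscle markers, from a tissue rich in mitochondria, summed to 2.48 to 107 CPM in Bone, 30.7 to 310 in MatC and 7.69 to 53.0 in ImC, with Tnnc2 at 0 throughout and Ckm at 0 in ImC. The 5 osteoclast markers summed to 461 to 1013 CPM in Bone, 32.2 to 555 in MatC and 5.46 to 8.69 in ImC, with Calcr at 0 in ImC. The 5 endothelial markers summed to 29.0 to 97.8, 11.03 to 161 and 0.745 to 9.83 CPM in the same order. The 5 macrophage and leukocyte markers in the table, of 6 listed, summed to 27.2 to 67.7, 4.53 to 47.2 and 2.67 to 5.06 CPM, with C1qa at 0 in ImC. Adipocyte markers summed to at most 0.217 CPM in any library. The nuclear RNAs Malat1 and Neat1 summed to 1744 CPM in MatC replicate 3 and to 244 to 629 CPM in the other 8 libraries.

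The rRNAs made up their largest part of the class in ImC, but the difference between the tissues did not pass the test. They took 27.2%, 14.7% and 10.03% of mitochondrial counts in Bone replicates 1, 2 and 3, 21.2%, 33.1% and 20.1% in MatC, and 36.3%, 42.8% and 37.7% in ImC. The ImC libraries lay above the other 6, and Bone overlapped MatC. The log2 ratio of rRNA to protein-coding counts averaged -2.37 ± 0.89 in Bone, -1.63 ± 0.54 in MatC and -0.65 ± 0.21 in ImC (SD, n = 3 each). An exact permutation test over the 3 groups gave p = 0.0607, and 0.121 after Benjamini-Hochberg adjustment over the 4 ratios tested. The smallest p this test can give is 0.00357. Without Bone replicate 1, the Bone library with the most rRNA, the adjusted p was 0.00714.

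mt-Rnr2 (chrM:1094-2675) is the RNA of the large ribosomal subunit and mt-Rnr1 (chrM:70-1024) that of the small one. mt-Rnr2 held 21.8%, 13.03% and 9.08% of mitochondrial counts in Bone, 19.1%, 30.7% and 17.6% in MatC and 28.3%, 33.2% and 34.4% in ImC. Bone lay below ImC without overlap, and MatC overlapped both. mt-Rnr1 held 5.46%, 1.69% and 0.954% in Bone, 2.08%, 2.39% and 2.46% in MatC and 8.02%, 9.64% and 3.33% in ImC. Here MatC lay below ImC and Bone spanned MatC. The 2 rRNAs leave 1 precursor, and their counts stood in no fixed ratio: mt-Rnr2 had 3.99, 7.73 and 9.52 reads per mt-Rnr1 read in Bone, 9.22, 12.9 and 7.18 in MatC and 3.53, 3.44 and 10.3 in ImC. Bone replicate 1 and ImC replicates 1 and 2 were the low libraries. The log2 ratio averaged 2.73 ± 0.65 in Bone, 3.24 ± 0.42 in MatC and 2.32 ± 0.90 in ImC (exact permutation p = 0.379, adjusted p = 0.379).

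Of the 4 ratios, that of mt-Nd6 passed the test. mt-Nd6 encodes a subunit of complex I and is the 1 protein-coding gene of the 13 on the minus strand (chrM:13552-14070). It held 3.27%, 1.89% and 2.33% of the protein-coding mitochondrial counts in Bone replicates 1, 2 and 3, 0.722%, 0.822% and 0.634% in MatC and 1.42%, 1.25% and 0.957% in ImC. The 3 groups did not overlap: every Bone library was above every ImC library, and every ImC library above every MatC library. The log2 ratio of mt-Nd6 to the other 12 protein-coding genes averaged -5.33 ± 0.41 in Bone, -7.10 ± 0.19 in MatC and -6.37 ± 0.30 in ImC (SD, n = 3 each). The exact permutation p over the 3 groups was 0.00357, the smallest the test can give, and the adjusted p was 0.0143. The adjusted p was 0.00714 to 0.0429 when any 1 library was left out. Differences of means were 1.78 for Bone minus MatC, 1.05 for Bone minus ImC and -0.73 for MatC minus ImC on the log2 scale. With 3 libraries against 3 a pairwise exact test cannot go below p = 0.1, so the pairs were not tested singly.

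mt-Nd5, the complex I gene that meets mt-Nd6 end to end on the other strand (chrM:11742-13565), did not show this order. It held 1.48%, 1.14% and 1.01% of protein-coding counts in Bone, 0.874%, 0.943% and 0.946% in MatC and 1.66%, 1.497% and 1.001% in ImC. Bone and ImC overlapped, and both lay above MatC. Reads of mt-Nd6 per read of mt-Nd5 were 2.21, 1.65 and 2.31 in Bone, 0.826, 0.872 and 0.670 in MatC and 0.857, 0.834 and 0.956 in ImC. Because the libraries do not mark strand, RNA of either strand over the mt-Nd6 segment would be counted for it.

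**Figure D2:**
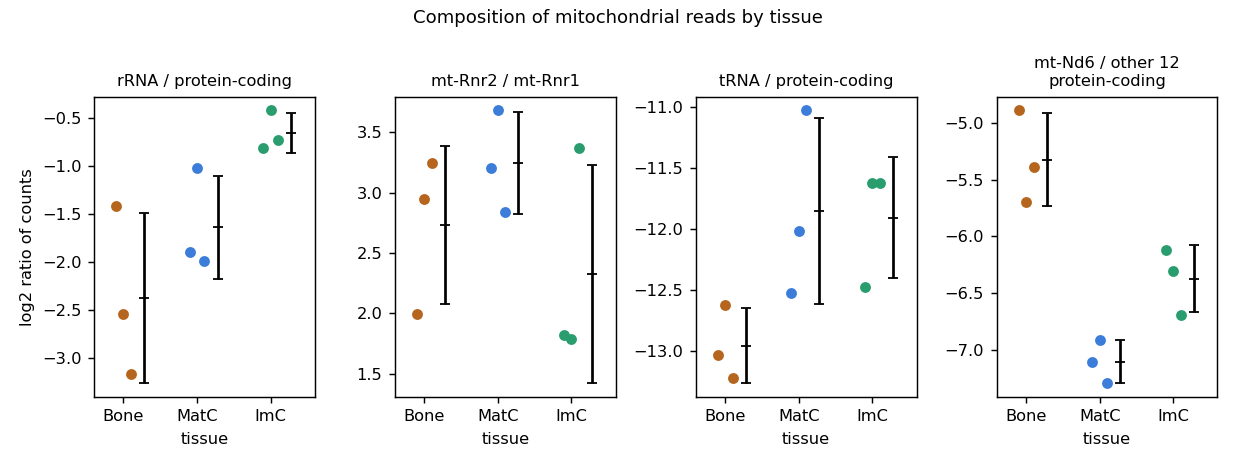
Log2 ratios of counts within the class for each library, by tissue; points are libraries and the black mark with its bar is the mean ± SD of 3. In the right panel mt-Nd6 separates the tissues with no overlap, while the mt-Rnr2 to mt-Rnr1 panel overlaps throughout.

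Of the other complex I genes, mt-Nd1 and mt-Nd2 held a smaller part of the protein-coding counts in the Bone libraries. Shares of single genes other than mt-Nd6 were not tested. mt-Nd1 (chrM:2751-3707), which lies next to the rRNAs, held 6.40%, 6.20% and 6.08% in Bone, 7.85%, 8.47% and 7.19% in MatC and 10.3%, 9.89% and 9.23% in ImC, again 3 groups without overlap. mt-Nd2 (chrM:3914-4951) held 3.45%, 3.54% and 3.95% in Bone, 4.63%, 4.45% and 6.15% in MatC and 5.05%, 5.36% and 4.99% in ImC. Bone lay below both cartilage groups, which overlapped. mt-Nd3 (chrM:9459-9806) held 2.91% to 3.84% in Bone, 2.81% to 2.94% in MatC and 3.10% to 3.37% in ImC, and mt-Nd4 (chrM:10167-11544) held 6.39% to 7.96%, 5.66% to 6.62% and 6.69% to 7.74% in the same order. For both of these MatC lay below ImC, while Bone overlapped each. The 7 complex I genes together took 22.1% to 26.4% in Bone, 23.3% to 24.1% in MatC and 26.4% to 29.3% in ImC. Some of these separations depend on the denominator. As a share of all mitochondrial counts, mt-Nd2 in Bone (2.51% to 3.55%) overlapped MatC (2.98% to 4.91%) and ImC (3.06% to 3.21%). On that measure mt-Nd1 overlapped between MatC and ImC, with Bone still below both. mt-Nd3 and mt-Nd4 were there higher in Bone than in both cartilage groups without overlap, and mt-Nd6 kept its order.

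As shares of protein-coding counts, the genes of complexes III, IV and V overlapped between most groups. mt-Cytb, the cytochrome b of complex III (chrM:14145-15288), held 13.6% to 15.02% in Bone, 11.7% to 13.3% in MatC and 13.1% to 13.9% in ImC. mt-Co1, the catalytic subunit of complex IV (chrM:5328-6872), held 12.5% to 13.7% in Bone, 8.98% to 13.7% in MatC and 8.80% to 11.9% in ImC. Bone was above MatC without overlap for mt-Cytb and above ImC for mt-Co1. mt-Co2 (chrM:7013-7696) held 21.4% to 23.3% in Bone, 21.5% to 25.2% in MatC and 19.7% to 22.9% in ImC. mt-Co3 (chrM:8607-9390) held 10.1% to 12.8%, 10.2% to 11.2% and 9.49% to 12.6% in the same order. All groups overlapped for these 2 subunits of complex IV. As a share of all mitochondrial counts, mt-Co2 was higher without overlap in Bone (16.1% to 20.9%) and MatC (14.4% to 20.1%) than in ImC (12.5% to 13.1%), while mt-Co3 overlapped throughout. mt-Atp6 (chrM:7927-8607), a subunit of the ATP synthase proton channel, held 13.8% to 16.5% in Bone, 16.6% to 20.2% in MatC and 15.03% to 16.8% in ImC, with Bone below MatC.

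mt-Atp8, whose sequence is printed above, is made on the same message as mt-Atp6 and had far fewer reads. mt-Atp6 had 343, 251 and 377 reads per mt-Atp8 read in Bone, 212, 202 and 105 in MatC and 138, 151 and 140 in ImC. mt-Atp8 held 0.0402%, 0.0655% and 0.0378% of protein-coding counts in Bone, 0.0821%, 0.0821% and 0.193% in MatC and 0.120%, 0.111% and 0.107% in ImC. Bone was below both cartilage groups without overlap, and MatC replicate 3 was the highest library. mt-Nd4l (chrM:9877-10173) stands in the same relation to mt-Nd4 and had even fewer reads: 2, 1 and 1 in Bone, 8, 26 and 18 in MatC and 6, 10 and 18 in ImC. Over all libraries it had 90 reads, against 2293040 for mt-Nd4.

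Counted without regard to which genes, 7 of the 13 protein-coding shares separated Bone from MatC (3 higher and 4 lower in Bone), 5 separated Bone from ImC (2 higher and 3 lower) and 5 separated MatC from ImC (all lower in MatC). Over all 14257 genes tested, CPM values did not overlap for 35.6%, 59.0% and 23.9% of genes in these comparisons. CPM and shares within the class are unlike measures. In CPM, 13, 13 and 0 of the 13 protein-coding genes did not overlap in the same comparisons, from which nothing is read since the class was chosen on this difference.

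Levels of different genes can be compared only per length. As a share of the reads per kb summed over the 15 rRNA and protein-coding genes, mt-Co2 was the highest in 7 of the 9 libraries and mt-Rnr2 in the other 2, ImC replicates 2 and 3. mt-Co2 stood at 24.1% ± 2.3 in Bone, 24.0% ± 2.8 in MatC and 18.7% ± 0.68 in ImC (SD, n = 3 each). mt-Atp6 followed on average over the libraries at 16.1% ± 2.4 in Bone, 18.5% ± 2.4 in MatC and 14.3% ± 0.71 in ImC, and then mt-Rnr2 at 8.38% ± 4.03, 13.3% ± 5.1 and 20.04% ± 2.3 in the same order. These 3 did not keep 1 order in every tissue, and in ImC mt-Rnr2 and mt-Co2 differed by less than the SD of mt-Rnr2. At the low end stood mt-Nd5 at 0.485% ± 0.059 in Bone, 0.351% ± 0.014 in MatC and 0.458% ± 0.111 in ImC, then mt-Atp8 at 0.174% ± 0.061, 0.408% ± 0.226 and 0.334% ± 0.029. In MatC the SD of mt-Atp8 covers mt-Nd5. mt-Nd4l was last, at 0.000279% to 0.000709% over the 9 libraries.

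**Figure D3:**
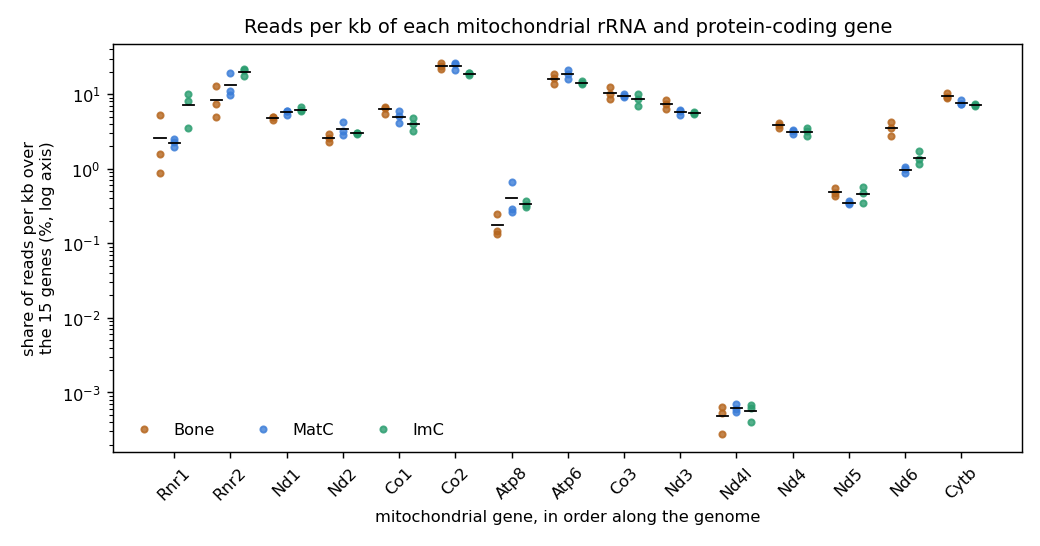
Reads per kb of each mitochondrial rRNA and protein-coding gene as a share of the sum over these 15 genes (%, log axis), in the order of the genes along the mitochondrial genome; points are libraries and bars are means of 3. mt-Co2 and mt-Atp6 are near the top in all tissues, mt-Nd4l lies below 0.001% and mt-Nd6 is higher in Bone.

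Almost no reads were counted for the tRNAs. Of the 22 tRNA genes, which are 59 to 75 bases long, 15 had 0 reads in all 9 libraries. These were mt-Ta, mt-Td, mt-Tf, mt-Tg, mt-Th, mt-Ti, mt-Tk, mt-Tl1, mt-Tl2, mt-Tm, mt-Tq, mt-Tr, mt-Ts2, mt-Tv and mt-Tw. For each, a count of 0 over the libraries allows up to 0.0594 counts per 1000000 mitochondrial counts, at a limit of 3 counts over all libraries. That limit pools the 9 libraries and is looser for any single tissue. It is loosest for Bone, with 572692 to 1045819 mitochondrial counts per library against at least 3460773 in each cartilage library. These are limits on counts and not on tRNA levels, since whether reads of genes this short could be counted was not tested. The 7 with a read were set apart by strand: 6 of the 8 tRNA genes on the minus strand had reads, against 1 of 14 on the plus strand, and that 1, mt-Tt, had a single read. The libraries do not mark strand, and the cause of this split was not tested.

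The tRNA for proline, mt-Tp, held 9302 of the 10069 tRNA reads, or 92.4%. It is printed here beside its neighbour for threonine, mt-Tt, which directly precedes it on the opposite strand and had 1 read, and beside the serine tRNA mt-Ts1, whose last bases, in capitals, are shared with mt-Co1.
mt-Tp (chrM:15356-15422, minus strand): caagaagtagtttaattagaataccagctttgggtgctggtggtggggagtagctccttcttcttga
mt-Tt (chrM:15289-15355, plus strand): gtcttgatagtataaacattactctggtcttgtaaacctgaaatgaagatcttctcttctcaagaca
mt-Ts1 (chrM:6870-6938, minus strand): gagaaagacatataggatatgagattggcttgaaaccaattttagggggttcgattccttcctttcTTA
mt-Tp had 56.6, 113 and 66.0 reads per 1000000 mitochondrial reads in Bone, 124, 153 and 371 in MatC and 94.7, 155 and 176 in ImC. Bone lay below MatC and overlapped ImC, and MatC replicate 3 was the highest. mt-Tn, for asparagine, had 5 to 17 reads in Bone, 13 to 49 in MatC and 43 to 82 in ImC. mt-Tc, for cysteine, had 3 to 6, 11 to 45 and 17 to 70, and mt-Ts1 had 4 to 11, 7 to 48 and 18 to 51, in the same order. As a share of mitochondrial counts mt-Ts1 separated all groups, at 0.000698% to 0.00105% in Bone, 0.000202% to 0.000305% in MatC and 0.000362% to 0.000526% in ImC, on few reads. mt-Te, for glutamate, had 0 to 2 reads in Bone, 0 to 6 in MatC and 2 in each ImC library. The log2 ratio of all tRNA to protein-coding counts averaged -12.96 ± 0.31 in Bone, -11.86 ± 0.76 in MatC and -11.91 ± 0.50 in ImC (exact permutation p = 0.104, adjusted p = 0.138).

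Parts of the mitochondrial chromosome have near-identical copies in the nuclear genome, which can share reads with the genes above. Of the 37 genes, 10 shared at least 1 stretch of 50 bases with another annotated gene of the table, 14 such genes in all. For mt-Co1, mt-Co2, mt-Atp6, mt-Co3, mt-Nd3, mt-Nd4l and mt-Nd4 the stretches found elsewhere were 51.1% to 100% of all in the gene. Each of the 7 has a copy in 1 stretch of chromosome 1, and mt-Co1 and mt-Co2 have others elsewhere. The aligned part of the chromosome 1 copy was identical for 5 of the 7 and 99.7% and 99.8% identical for the copies of mt-Nd3 and mt-Co1. mt-Rnr1, mt-Nd1, mt-Nd6, mt-Cytb, mt-Atp8 and all tRNAs shared no 50-base stretch with another annotated gene of the table. Nuclear sequence outside annotated transcripts was not searched, so whether these members have a nuclear copy was not tested. mt-Atp8 and some tRNAs lie between copied genes, and the 43 bases that mt-Atp8 shares with mt-Atp6 are fewer than 50. The counts of the 7 copied genes are uncertain where reads could be placed at either locus, and those of other members may be.

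In the deposited counts nearly all reads stood under the mitochondrial symbols, with 1 exception. The 14 copies together had 33 to 44 reads in Bone libraries, 192 to 964 in MatC and 247 to 562 in ImC, or 41.1 to 57.6, 53.8 to 109 and 50.1 to 65.7 copy reads per 1000000 mitochondrial reads in the same order. The 5 copies with the most reads were Gm13341 (mt-Co2, 682 reads over the 9 libraries), Gm28438 (mt-Nd3, 597), Gm10925 (mt-Atp6, 490), Gm28437 (mt-Co3, 439) and Gm28661 (mt-Co2, 293). Gm10925 had 490 reads over the 9 libraries against 5899837 for mt-Atp6. The exception, singled out after its values were seen, was Gm10222, a copy of mt-Nd4l, with 105 reads against 90 for mt-Nd4l itself. With the 7 copied genes left out of the protein-coding sum, the mt-Nd6 ratio kept its adjusted p of 0.0143, and its Bone minus ImC difference was 1.25 on the log2 scale.

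To set each gene beside the rest of the transcriptome, all 14257 genes that passed a filter on low counts were fitted with edgeR's quasi-likelihood test, with TMM scaling. Of the 37 mitochondrial genes 19 passed: both rRNAs, all 13 protein-coding genes and 4 tRNAs. The 15 tRNA genes at 0, mt-Te, mt-Ty and mt-Tt did not. In Bone against MatC, log2 fold changes ran from -6.51 for mt-Tp to -2.64 for mt-Nd6 with a median of -4.41, against a median of -0.03 over all genes tested. In Bone against ImC they ran from -4.23 for mt-Rnr2 to -1.55 for mt-Nd6 with a median of -2.74, against -0.02 over all genes. In MatC against ImC they ran from -0.03 for mt-Tn to 2.51 for mt-Tp with a median of 1.64, against 0.03 over all genes. These comparisons share libraries and measure the same quantity as the share that chose the class. With library size in place of TMM scaling all 19 stayed lower in Bone, while in MatC against ImC the median was 0.61 and, over all alternatives, mt-Rnr1, mt-Rnr2, mt-Tc, mt-Tn and mt-Ts1 took either sign.

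At an adjusted p under 0.05, 16 of the 19 were lower in Bone than in MatC and 0 higher, where 4.69% of all genes were lower and 1.36% higher. In Bone against ImC 17 were lower and 0 higher, where 16.8% of all genes were lower and 14.3% higher (31.1% in either direction). Nothing is read from these counts, since the class was chosen on this difference. The genes not called were mt-Nd6, mt-Tn and mt-Ts1 in the first and mt-Nd6 and mt-Ts1 in the second. The called count in Bone against MatC was 1, 0 and 0 without Bone replicates 1, 2 and 3, and in Bone against ImC it was 2, 2 and 3 without the same libraries, 9 without ImC replicate 1 and 8 without ImC replicate 3. In MatC against ImC, edgeR called 0 higher and 0 lower, where 5.41% of all genes were called higher and 2.29% lower (7.71% in either direction), with 8 higher and 0 lower at an unadjusted p under 0.05 and 5 higher by DESeq2. Without MatC replicate 1, edgeR called 1 higher. Without MatC replicate 3 the median log2 fold change was 0.64 in MatC against ImC and -3.42 in Bone against MatC.

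For single genes the values were as follows. mt-Co2 averaged 9914 ± 2094 CPM in Bone, 238574 ± 236615 in MatC and 57823 ± 29202 in ImC (SD, n = 3 each). Its log2 fold change was -4.59 ± 0.91 for Bone against MatC, -2.54 ± 0.83 for Bone against ImC and 2.04 ± 0.81 for MatC against ImC (SE). mt-Nd6 averaged 1092 ± 262 CPM in Bone, 6795 ± 5619 in MatC and 3198 ± 1260 in ImC, so that its difference from cartilage was smaller than that of any other protein-coding gene of the class. mt-Rnr1 and mt-Rnr2 had log2 fold changes of -4.23 ± 0.94 and -4.23 ± 0.91 for Bone against ImC, and of 0.24 ± 0.82 and 0.95 ± 0.80 for MatC against ImC. In MatC the SD was above the mean for mt-Atp6, mt-Atp8, mt-Nd2, mt-Tc and mt-Tp.

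**Figure D4:**
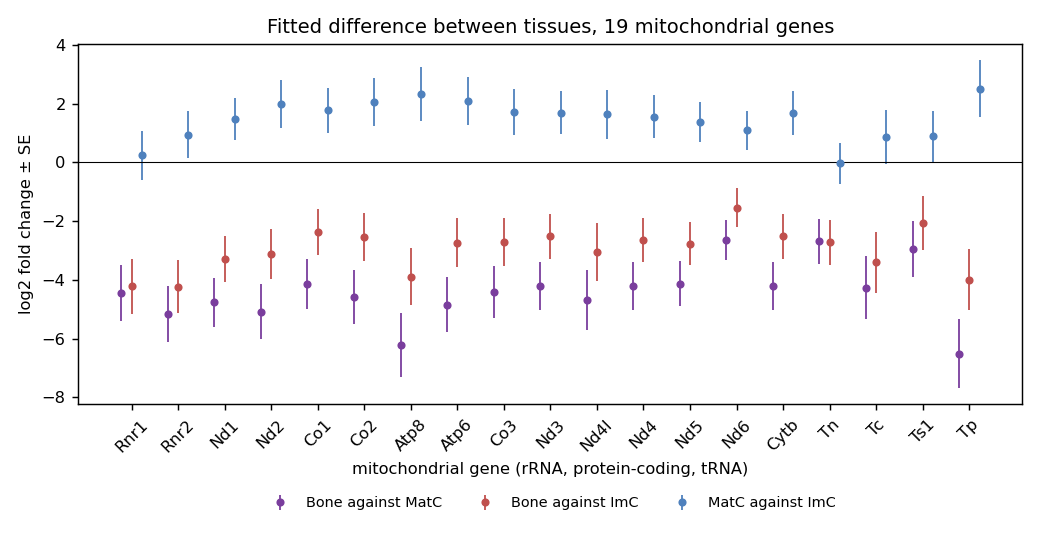
Log2 fold change ± SE from edgeR for the 19 mitochondrial genes that passed the filter, in Bone against MatC, Bone against ImC and MatC against ImC; points are fitted values. Both comparisons of Bone with cartilage are negative for every gene, and those of mt-Nd6 are -2.64 and -1.55, nearer to 0 than those of the other protein-coding genes.

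The nuclear genes that copy, transcribe and process the mitochondrial genome had few calls: 6 in Bone against ImC, 1 in MatC against ImC and 0 in Bone against MatC. A list of 58 such genes was in the table and 56 were tested. In Bone against ImC, 2 rose and 4 fell, where 14.3% and 16.8% of all genes were called, and the list's median log2 fold change was -0.09 against -0.02 over all genes. In Bone against MatC, edgeR called 0 (0 higher and 7 lower at an unadjusted p under 0.05, 0 by DESeq2), where 6.05% of all genes were called. In MatC against ImC, 1 rose and 0 fell, where 5.41% and 2.29% of all genes were called, with 3 and 1 at an unadjusted p under 0.05, and DESeq2 called 1 higher and 1 lower. Without 1 library the counts in Bone against ImC ran from 1 to 3 higher and from 0 to 7 lower. There were 0 lower without any 1 Bone library or ImC replicate 3, 1 without ImC replicate 1, 2 without MatC replicate 2 and 7 without MatC replicate 3. The 2 called higher became 1 without any 1 Bone library, MatC replicate 1 or 2, or ImC replicate 1 or 3. In Bone against MatC 2 were lower without MatC replicate 1.

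Ppargc1a, a coactivator that drives the making of mitochondria, rose in Bone and in MatC against ImC. It stood at 5.25, 5.65 and 5.57 CPM in Bone, 5.84, 3.595 and 6.22 in MatC and 0.583, 0.794 and 1.92 in ImC, from 66 to 99, 22 to 77 and 7 to 27 reads. The 3 ImC libraries lay below all others. The log2 fold change was 2.31 ± 0.53 for Bone against ImC (edgeR adjusted p = 0.0101) and 2.23 ± 0.54 for MatC against ImC (edgeR adjusted p = 0.0353); the ImC libraries are shared. The first call held in all 16 alternative settings. The second was lost in 9 of 16, with adjusted p up to 0.167 (a fit of these 2 groups alone), among them each fit without a Bone library and those without MatC replicate 1 or ImC replicate 1 or 2.

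Grsf1, an RNA-binding protein of mitochondrial RNA granules, also rose in Bone against ImC, by 1.18 ± 0.40 on the log2 scale (edgeR adjusted p = 0.0477). Grsf1 stood at 54.7, 68.7 and 66.1 CPM in Bone, 43.4, 38.9 and 26.3 in MatC and 30.4, 40.9 and 12.2 in ImC. Bone was above both cartilage groups without overlap. The 4 genes that fell modify mitochondrial rRNA or tRNA or copy mitochondrial DNA. Rnmtl1, an rRNA methyltransferase now named Mrm3, fell by 1.77 ± 0.49, and Nsun4, another, fell by 0.95 ± 0.31 on the log2 scale (edgeR adjusted p = 0.0206 and 0.0429). Trmu, which modifies tRNA, fell by 1.46 ± 0.47 (edgeR adjusted p = 0.0393) and stood at 9.15, 9.85 and 9.23 CPM in Bone, 9.47, 24.5 and 35.1 in MatC and 19.2, 18.8 and 39.9 in ImC. Polg, the catalytic subunit of the mitochondrial DNA polymerase, fell by 1.24 ± 0.42 (edgeR adjusted p = 0.0485) and stood at 5.68, 3.68 and 3.604 CPM in Bone, 6.37, 9.16 and 13.01 in MatC and 7.75, 8.14 and 14.8 in ImC. Each of these 5 calls was lost without any 1 Bone library and without ImC replicate 3. All but that of Rnmtl1 were also lost without MatC replicate 2 or ImC replicate 1, that of Grsf1 without MatC replicate 1 and that of Polg without ImC replicate 2. With library size in place of TMM scaling all 5 were lost as well, with adjusted p of 0.175 for Rnmtl1, 0.201 for Trmu, 0.596 for Nsun4, 0.177 for Grsf1 and 0.389 for Polg.

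**Figure D5:**
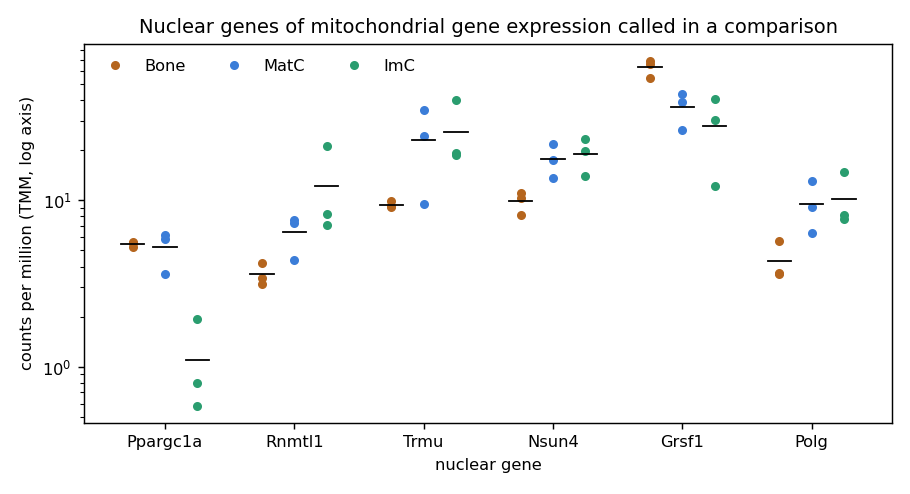
Counts per 1000000 (log axis) of the 6 nuclear genes of mitochondrial gene expression called in a comparison, by tissue; points are libraries and bars are means of 3. Ppargc1a is at 0.583 to 1.92 CPM in ImC and at 3.595 CPM or more in the other libraries.

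Outside the class, the 5 genes whose log2 CPM was most like that of the summed mitochondrial counts over the 9 libraries were Gm7416, Wdr4, Pou1f1, Pigr and Usp17la, with Pearson r of 0.982 to 0.989. The r is a description over libraries of 3 tissues that share their scaling. In CPM each was lowest in Bone and highest in MatC replicate 3, while in raw reads each was higher in MatC replicate 2 than in replicate 3. Gm7416, Pou1f1 and Pigr had only 0 to 5 reads in each Bone library. Pigr, a receptor that carries antibodies across epithelia, stood at 0.271, 0.428 and 0.169 CPM in Bone, 5.84, 40.9 and 111 in MatC and 3.92, 4.07 and 24.3 in ImC. Pou1f1, a transcription factor of the pituitary, stood at 0.171 to 0.282 CPM in Bone, 2.43 to 33.7 in MatC and 1.19 to 11.1 in ImC. Wdr4, a subunit of a tRNA methyltransferase, stood at 5.74 to 7.36, 14.6 to 39.3 and 13.005 to 28.6 CPM in the same order. Usp17la belongs to a family of near-identical genes, so its counts are uncertain.

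The authors' deposited normalized table keeps 19 of the 37 genes, each library's raw counts scaled by 1 factor. That factor was 3.67 for MatC replicate 3 and 0.692 to 1.21 for the other 8 libraries. On that scale the class took 7.25% to 8.93% of the table in Bone, 33.8%, 69.2% and 82.4% in MatC replicates 1, 2 and 3 and 32.1% to 55.2% in ImC.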

How the data were processed

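Per the labels' protocols, small RNA inputs were amplified for 1 round before an Illumina TruSeq preparation. The raw table deposited by the authors holds counts of reads per gene symbol. Per the submitters' processing notes, the tools named are Trimmomatic (0.30), Bowtie2, TopHat2, edgeR and HTSeq, and the build is mm10; the role and options of each are not given in the sources used here. A further table deposited by the authors holds a normalized score: raw counts times 1 factor per library, in whole numbers. The factor was read from genes with over 2000 raw counts. The amplification kit primes on poly(A) tails, and its part in the rRNA, tRNA and mt-Nd6 counts was not tested.

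Shares and ratios were computed from raw counts; 0.5 was added to both terms of the tRNA and mt-Nd6 ratios. The 4 ratios were tested over all 1680 assignments of the libraries to 3 groups (exact permutation, between-group sum of squares). All genes were fitted with edgeR 4.0.16 (R 4.3.3; filterByExpr, minimum count 10; TMM; all 9 libraries; Benjamini-Hochberg over 14257 genes). DESeq2 1.42.0 was an alternative. CPM use TMM. Genome positions, gene overlaps and the search for 50-base copies used GENCODE M21 (GRCm38, which mm10 denotes) and its transcripts. Both procedures were tested on simulated data. The genes and lists were chosen with earlier results of these data known. Named were both rRNAs, all protein-coding genes, the 5 tRNAs with most reads and those at 0, called nuclear list members (up to 5 per comparison by p), copies, and the 5 most alike genes; the remaining called nuclear list member, Polg, was added after its values were seen. No 2 replicates agreed within sampling noise. The level of 1 of the marker genes is left out here.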

Additional observations from a re-analysis of the deposited data

How the results depend on the processing

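The mt-Nd6 ratio stayed under an adjusted p of 0.05 with a pseudocount of 1, with the Kruskal-Wallis statistic, without the copied genes and without any 1 library (0.00714 to 0.0429). No source says that equal replicate numbers pair libraries; correlations of deviations between same-numbered libraries ran from -0.131 to 0.240. With a replicate block, permuting within numbers, the adjusted p was 0.111 for mt-Nd6, from a p of 0.0278, the smallest that permutation can give; the block also lost the calls of Nsun4 and Polg in Bone against ImC. The 3 other ratios were not called with all libraries; without 1 library the adjusted p ran from 0.00714 (Bone replicate 1) to 0.193 for rRNA, 0.121 to 0.611 for mt-Rnr2 over mt-Rnr1 and 0.1 to 0.343 for tRNA. The copied genes do not enter the rRNA to rRNA ratio.

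With rRNA and tRNA rows left out of both the class and the total, the mitochondrial share was 6.73% in Bone, 55.8% in MatC and 33.0% in ImC. The mean share of the whole class, without 1 library, was 7.57% to 8.40% in Bone, 51.4% to 75.7% in MatC and 38.6% to 50.2% in ImC. Without 1 library, 0 to 19 mitochondrial genes were called lower in Bone against MatC, 2 to 18 lower in Bone against ImC and 0 to 1 higher in MatC against ImC. In that last comparison 2 were called higher with no low-count filter and 5 with DESeq2. Of the nuclear list in Bone against ImC, 1 was called higher and 0 lower with library size only, and 1 and 7 with only these groups; without 1 library, 1 to 3 were higher and 0 to 7 lower. In MatC against ImC, 0 were called higher with library size only, with the replicate block and with only these groups, 0 to 1 without 1 library, and 1 lower with DESeq2. In Bone against MatC, 0 to 2 were lower without 1 library. The cause of these shifts was not tested. With library size only, the median of all genes was 0.95 in Bone against MatC, 0.46 in Bone against ImC and -0.51 in MatC against ImC, and that of the mitochondrial genes -2.76, -2.18 and 0.61.

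Of 1022 fold changes of single genes under alternatives, 809 kept their call or, if not called at first, moved by less than 1 SE. A further 172 lost a call, 41 moved further and 0 called values changed sign. The 809 include values that gained a call, such as mt-Atp6 in MatC against ImC (DESeq2 adjusted p = 0.0215). Of 45 mean shares, 35 moved by over 1 SD when taken per kb of gene length. At 1904092 counts outside the class, MatC replicate 3 limits what low genes can show.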
